A study of Mus musculus with 38 samples.

Results

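Cultures grown from brain in a clonogenic assay, in which single cells or small groups of cells are left to form colonies, were compared with the 4T1 cell line kept in ordinary culture. The brain control group held 5 libraries and the cultured 4T1 control group held 3, together 8 of the 38 mouse samples of the series. The members were chosen by their titles and columns, with earlier results of these data known. They were the untreated controls of the brain experiment and of the exosome culture experiment, joined gene by gene on the Ensembl identifier. The series asks how insulin sensitive (IS) and insulin resistant (IR) adipocytes act on triple-negative breast cancer through the exosomes they release, and its 4 experiments cover cultured 4T1 cells, brain cultures, primary tumours and cells given a microRNA. The labels give all 8 libraries the cell line 4T1 and the cell type mammary adenocarcinoma, and no treatment. 4T1 cells were bought from a cell bank and grown in RPMI1640 medium with serum, and the treatment protocol that all samples carry describes 72 h of culture. The host strain and age, the number of animals, how 4T1 cells reached the brain and how the brain colonies were selected and grown are not given in the sources used here. Replicates are called biological without naming separate animals or cultures, and a p-value here reflects variation among the sequenced libraries, which could be technical in part.

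4T1 is an epithelial mouse mammary carcinoma line that spreads to distant organs from the mammary fat pad, and it carries the cell adhesion and keratin genes of its tissue of origin. Brain tissue placed in culture can also yield cells of its own: astrocytes and other glia, the microglia and macrophages that take up debris, the pericytes, smooth muscle and endothelium of vessels, the fibroblasts of the meninges, and the secretory epithelium of the choroid plexus, which makes cerebrospinal fluid. Each of these carries genes that epithelial cancer cells lack, and cells that leave the division cycle lower a shared set of mitotic genes.

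Library totals ran from 8790616 to 11533172 counts in the brain control group and from 9254662 to 11405709 in the cultured group, so depth was alike. At least 1 count was found for 18572 to 19383 genes per brain library and for 15214 to 15489 genes per cultured library. The brain and cultured libraries came from separate experiments and separate tables, so the source of the cells and the experiment cannot be told apart, and only differences of 8-fold or more were called. Levels are in CPM, the gene's share of its library's scaled total in the usual count-per-megaread unit, as mean ± SD over the libraries of a group. In RNA from mixed cells, fewer cells of a type and less RNA per cell cannot be told apart. Mitochondrially encoded genes took 1.97% to 3.13% of the counts in the brain libraries and 0.281% to 0.600% in the cultured ones.

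Of 12821 genes with enough counts, 2056 were called higher in the brain cultures, 16% of those tested, and 606 lower, 4.73% (edgeR quasi-likelihood test, adjusted p of 0.05 and 8-fold). The median log2 fold change of all tested genes, brain over culture, was 0.16. No count was found in any cultured library for 874 tested genes, and none in any brain library for 19. Such a gene has no finite fold, so its fold is given as at least the ratio to a floor of 3 counts over the group that lacks it, which is 0.0965 CPM in culture and 0.0610 CPM in brain. Where a group held 1 to 3 counts, the ratio is given with its exact 95% counting interval, which covers counting error only. A gene that passed the count filter only through the group where it was high had to differ, so the member counts below describe the lists and do not test them. Each count is to be read beside the 16% called higher and 4.73% called lower among all tested genes.

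**Figure D1:**
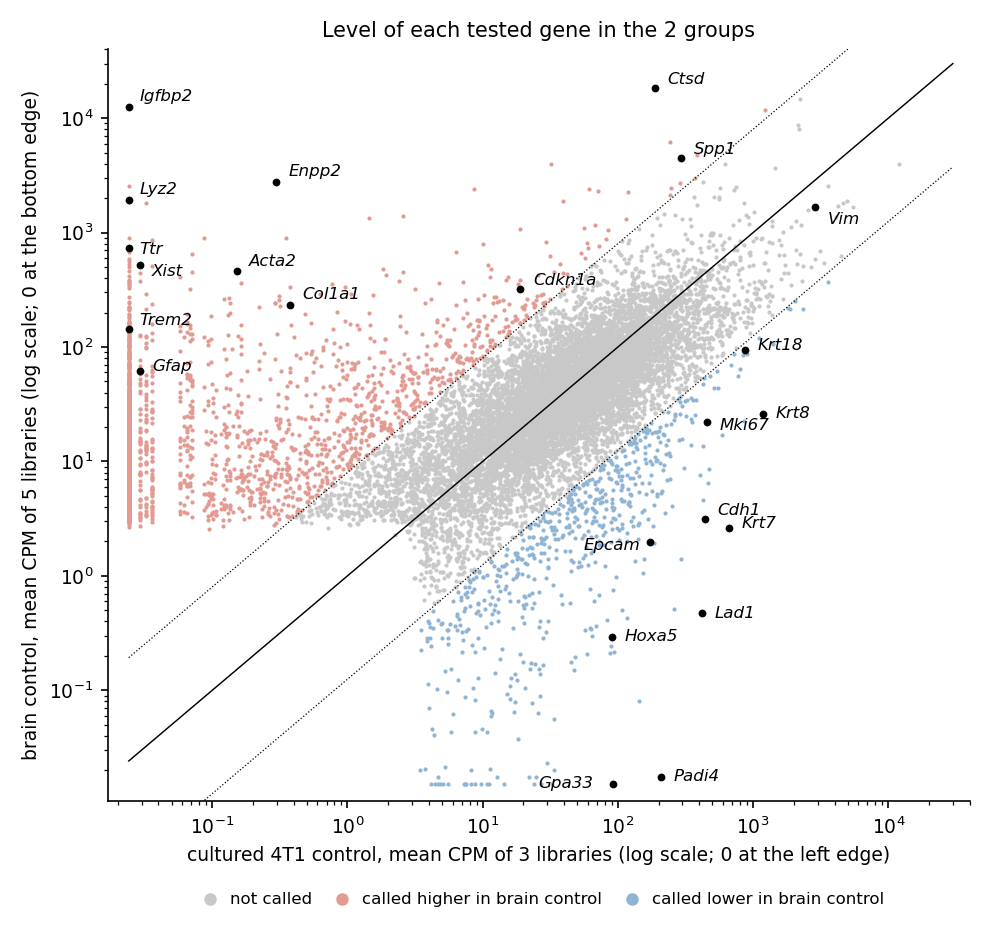
Each point is a tested gene, with its mean CPM over the 3 cultured 4T1 control libraries on the x axis and over the 5 brain control libraries on the y axis, both on log scales, with genes at 0 drawn at the edge. The solid line marks equal levels, the dotted lines mark 8-fold, and the column at the left edge holds the genes absent from culture, such as Igfbp2 (12568 CPM in brain), Lyz2 and Ttr.

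The labelled identity was checked first. Epcam, the epithelial cell adhesion molecule that defines carcinoma cells in many assays, stood at 2.67, 2.88, 2.44, 1.31 and 0.612 CPM in brain libraries 1 to 5 and at 169, 187 and 165 CPM in the cultured libraries, 90.1-fold lower in brain (log2 -6.49 ± 0.18, SE, adjusted p = 3.2e-13). Cdh1, E-cadherin of the junctions between epithelial cells, stood at 6.97, 4.84, 1.06, 2.22 and 0.437 CPM against 427, 445 and 446 CPM, 146-fold lower (log2 -7.19 ± 0.29, adjusted p = 1.5e-11). The groups did not overlap for either gene. The data therefore go against the label of the brain libraries as mammary adenocarcinoma cells alone. Epcam and Cdh1 were present at low counts, 94 for Epcam over all 5 libraries. They stood beside high levels of genes of other cell types, described below. Which cells held these counts, and whether cells of the cultured line were among them, was not tested. Gpa33 and Hoxa10, named below for their large falls, had no count in the 5 brain libraries. Their means in culture were 92.2 and 27.1 CPM. By contrast, 7 of 29 epithelial, keratin and hemidesmosome genes followed below kept 50% or more of the cultured level.

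Of 21 tested genes in the list of epithelial genes (24 in all), 15 were lower, 1 was higher and 5 were not called, with a median log2 of -4.93. Esrp1, a splicing regulator of epithelial cells, was 174-fold lower (log2 -7.44 ± 0.25, adjusted p = 2.05e-12). Grhl2, a transcription factor that maintains epithelial identity, stood at 0, 0, 0, 0.404 and 0.350 CPM in brain against 45.2, 50.3 and 47.0 CPM in culture, 272-fold lower (log2 -8.09 ± 0.29, adjusted p = 5.55e-12). The claudins Cldn3 and Cldn7, sealing proteins of tight junctions, were 121-fold and 108-fold lower. The exception was Cdh3, P-cadherin, which stood at 61.8, 67.0, 87.9, 66.5 and 77.6 CPM in brain against 1.27, 0.748 and 1.22 CPM, 65.4-fold higher (log2 6.03 ± 0.20, adjusted p = 1.86e-12). Genes that were not called included Cldn4, at 71.2 to 111 CPM in brain and 128 to 136 CPM in culture, and the desmosome genes Dsp and Perp, which were somewhat higher in brain.

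All 6 tested keratins of 13 were lower in the brain cultures. Keratins build the intermediate filaments of epithelial cells, and Krt8 and Krt18 pair in simple epithelia. Krt8 stood at 28.5, 29.8, 21.6, 30.5 and 19.3 CPM in brain against 1185, 1184 and 1164 CPM, 45.5-fold lower (log2 -5.51 ± 0.12, adjusted p = 3.59e-14). Krt18, its partner, stood at 94.3, 100, 100, 90.7 and 86.5 CPM against 875, 854 and 871 CPM, 9.18-fold lower (log2 -3.20 ± 0.057, adjusted p = 1.02e-14). The partners thus did not fall by the same factor. Krt7 was 252-fold lower (log2 -7.98 ± 0.18), Krt14, of basal cells, 276-fold (log2 -8.11 ± 0.20), Krt19 12-fold and Krt80 16.2-fold. Krt17 did not pass the count filter and stood at 10.9, 6.11, 2.86, 1.01 and 0 CPM in brain libraries 1 to 5 and at 1.18 to 1.65 CPM in culture, so its groups overlapped.

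The windows from 250 bases before to 50 after the annotated start of Epcam, Krt8 and Krt18 are shown because these genes separate the groups and because E-boxes in epithelial promoters are known binding letters of the Snail and Zeb repressors. The sequences are from RefSeq on GRCm38.p6, 5′ to 3′ on the strand of the gene, with CACCTG or its reverse complement CAGGTG in capitals. Epcam lies at chr17:87635729-87636028 on the plus strand, Krt8 at chr15:102004293-102004592 on the minus strand and Krt18 at chr15:102027966-102028265 on the plus strand.
Epcam: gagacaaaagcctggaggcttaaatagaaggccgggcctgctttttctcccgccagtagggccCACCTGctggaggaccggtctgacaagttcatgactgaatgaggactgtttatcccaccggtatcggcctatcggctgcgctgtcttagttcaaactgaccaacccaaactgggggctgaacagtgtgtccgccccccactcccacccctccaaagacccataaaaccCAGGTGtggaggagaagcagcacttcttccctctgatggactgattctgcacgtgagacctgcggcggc
Krt8: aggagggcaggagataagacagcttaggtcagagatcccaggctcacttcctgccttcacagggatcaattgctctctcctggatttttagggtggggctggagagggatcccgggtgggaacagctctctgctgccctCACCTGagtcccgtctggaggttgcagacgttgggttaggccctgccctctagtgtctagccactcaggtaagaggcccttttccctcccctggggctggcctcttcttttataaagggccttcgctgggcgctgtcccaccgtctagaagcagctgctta
Krt18: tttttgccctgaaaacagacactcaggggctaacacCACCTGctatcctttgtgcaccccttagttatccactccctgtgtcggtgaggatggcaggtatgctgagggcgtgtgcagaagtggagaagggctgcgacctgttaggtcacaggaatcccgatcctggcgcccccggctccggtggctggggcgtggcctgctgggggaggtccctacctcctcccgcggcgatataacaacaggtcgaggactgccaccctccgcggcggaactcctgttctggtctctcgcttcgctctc
Epcam held 2 matches, Krt8 1 and Krt18 1. A count over the epithelial and keratin lists is void, since 20 of their 37 genes, fewer than 80%, had a window in the table. Of those 20, CACCTG was found in 15, against 22.6% of all 27025 genes with a window. Among the 15 were Epcam, Krt7 and Krt8, with under 5% of the cultured level left in brain. Also among them were Cldn4, Ocln, Spint2 and Dsp, at 68.1%, 52.6%, 48.6% and 177% of that level. The Grainyhead-like letters AACNGGTT were found in 1 of the 20, Rab25, against 2.35%. A match describes letters and not a bound site.

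Set against the cultured mean, 29 epithelial, keratin and hemidesmosome genes at 20 CPM or more in culture were left at very different shares in brain. The mean share was under 5% for 13 genes, from 5% to 50% for 9 and 50% or more for 7, of which 4 were above 100%. Grhl2 was at 0.317%, Krt14 at 0.367%, Cdh1 at 0.707% and Epcam at 1.14%, while Krt18 was at 10.9%, Itga6 at 17.3%, Dsp at 177% and Cd151 at 210%. The median over the 29 genes was 7.65%, 7.01%, 5.28%, 6.71% and 5.11% in brain libraries 1 to 5. No single share thus describes the 29 genes.

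**Figure D2:**
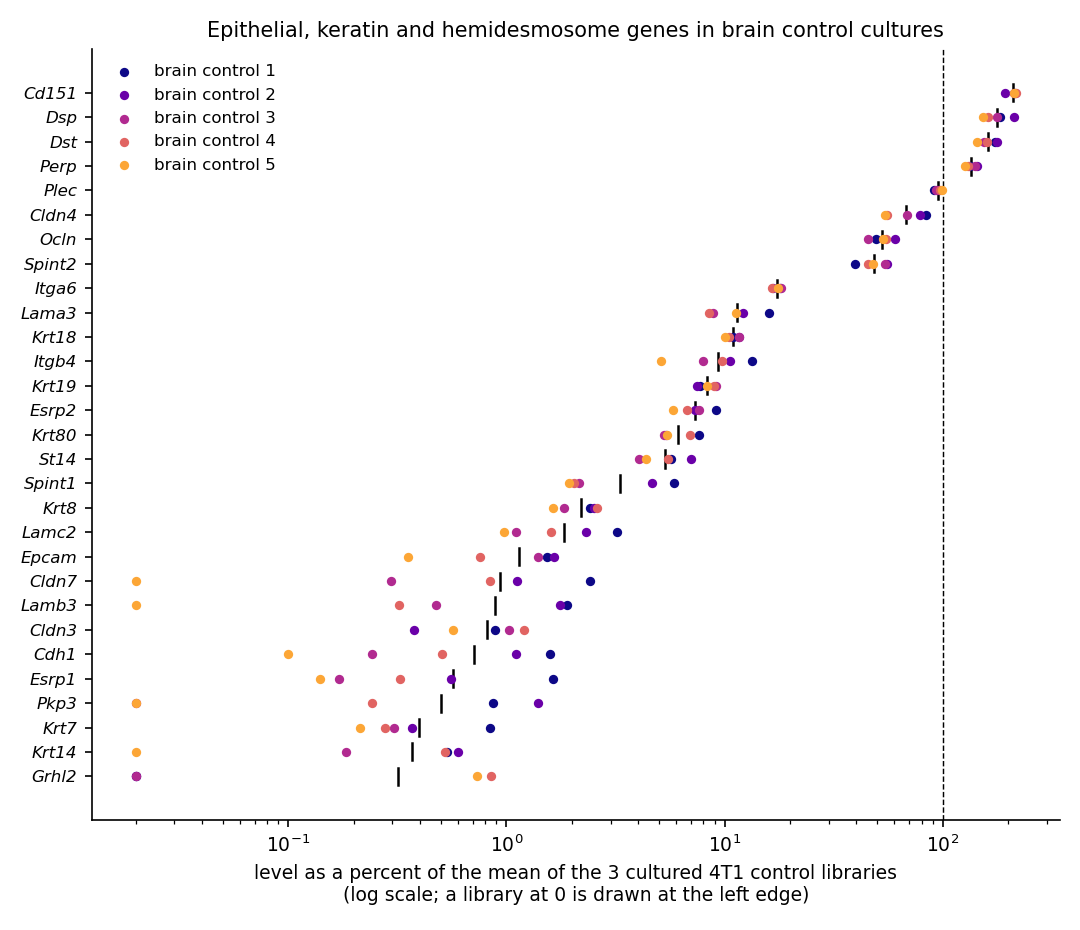
Rows are the 29 epithelial, keratin and hemidesmosome genes with 20 CPM or more in culture, points are the 5 brain control libraries and black ticks are their means, as a percent of the mean of the 3 cultured 4T1 control libraries on a log scale, with a library at 0 drawn at the left edge. Shares run from 0.317% for Grhl2 to 210% for Cd151, and 13 of the genes lie under 5%.

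Hemidesmosomes anchor epithelial cells to laminin in the basement membrane. Of 8 tested genes of this list (9 in all), 4 were lower and none was higher. Lamb3, which encodes a chain of the laminin they bind, was 117-fold lower (log2 -6.87 ± 0.29, adjusted p = 3.09e-11). Itgb4, the integrin chain of the hemidesmosome, was 10.8-fold lower and Lama3 8.78-fold. Plec and Dst, cytolinkers that many cell types use, stood at 558 to 606 and 439 to 540 CPM in brain and at 594 to 627 and 269 to 329 CPM in culture, and were not called. Milk genes were near 0 in both groups, with Csn2, Wap and Lalba at 0 in all 8 libraries. Of 4 tested mammary genes, 2 were lower: Gata3, a luminal transcription factor, 22.2-fold (log2 -4.48 ± 0.17, adjusted p = 1.06e-11), and Areg, an EGF receptor ligand, 32.1-fold.

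Genes of the HoxA cluster, which pattern the body axis, marked the cultured line. Of 39 Hox genes, 7 were tested and all 7 were lower in brain, all of them HoxA genes. Hoxa5 stood at 0.205, 0.346, 0.212, 0 and 0.699 CPM in brain against 88.5, 91.6 and 91.3 CPM, 285-fold lower (log2 -8.16 ± 0.20, adjusted p = 1.4e-13). Hoxa10 had no count in brain and 24.7, 28.4 and 28.3 CPM in culture, at least 445-fold lower. The summed level of the 39 genes was 186 CPM in culture and 6.72 CPM in brain. In the brain libraries the low remainder also held HoxB genes, with Hoxb4 at 3.59, 2.42, 1.06, 0.505 and 2.10 CPM and at 0 in culture.

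The largest falls among abundant genes, 14 by the naming rule with Hoxa10 among them, were of varied function. Gpa33, an intestinal cell surface antigen, had no count in brain and 92.2 ± 3.71 CPM in culture (n = 3), at least 1512-fold lower (adjusted p = 4.87e-12). Padi4, which converts arginine to citrulline in proteins, had 1 count over the 5 brain libraries and 209 ± 10.5 CPM in culture, a ratio of 10280 (interval 1844 to 406112, adjusted p = 2.22e-15). The related enzyme gene Padi1 had a ratio of 1079 (193 to 42679). Il24, a cytokine of the interleukin-10 family, was at least 533-fold lower and the ligand Wnt10a at least 393-fold lower. Wnt7b, another Wnt ligand, stood at 0.511 ± 0.402 CPM against 260 ± 9.18 CPM, 519-fold lower (log2 -9.02 ± 0.17). Lad1, of the basement membrane anchor, was 904-fold lower (log2 -9.82 ± 0.18) and the surface protease Tmprss11e 1533-fold (log2 -10.58 ± 0.23). Tigit, an inhibitory receptor named from lymphocytes, was at 30.1 ± 0.848 CPM in the cultured line and had 1 count in brain, a ratio of 1482 (265 to 58613). Htr5b, a serotonin receptor, had a ratio of 1669 (299 to 65987), the imprinted gene Phlda2 1228 (220 to 48553) and Acap1 552 (188 to 2679). Tnnt2, cardiac troponin T, was 433-fold lower (log2 -8.76 ± 0.22). The naming rule asked that the groups not overlap, so their separation is part of the choice.

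**Figure D3:**
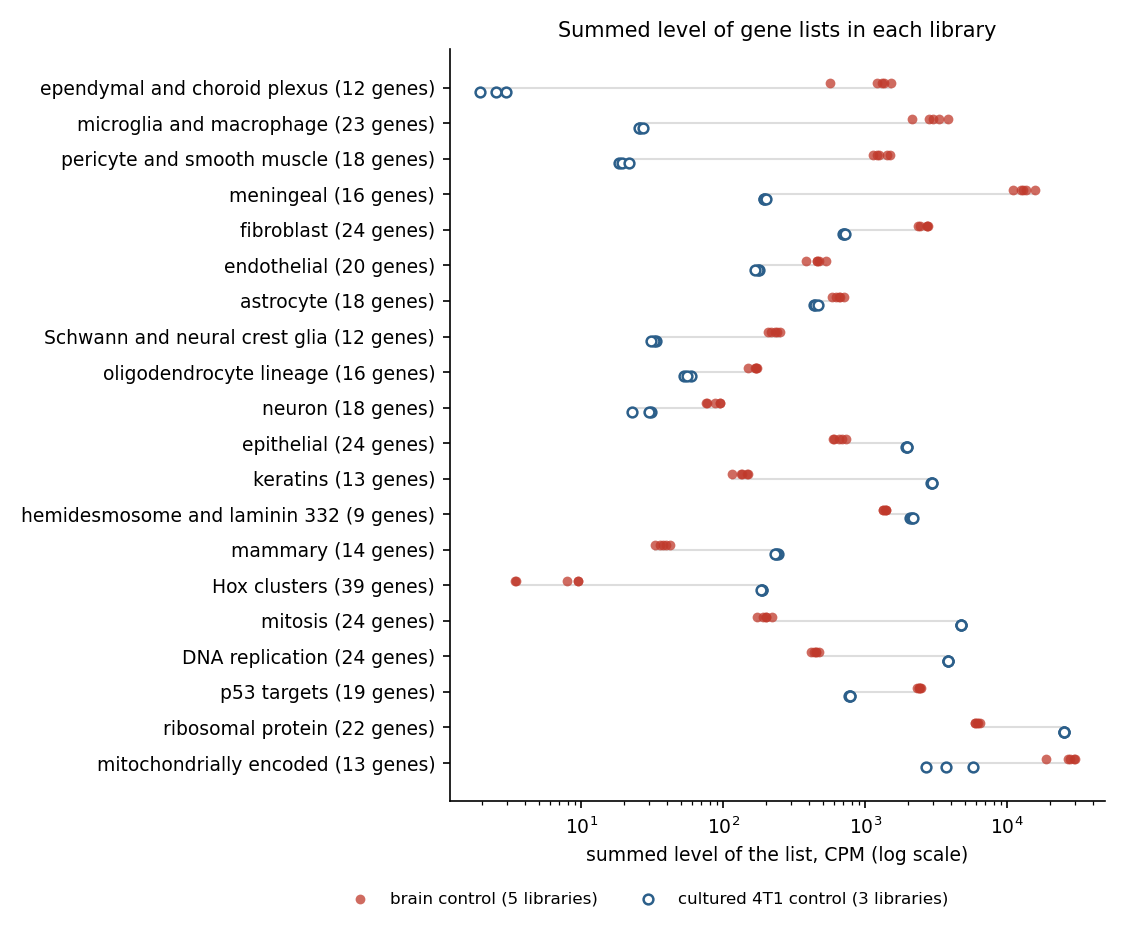
Each row is a gene list, and each point is the summed CPM of its genes in 1 library on a log scale, red for the 5 brain control libraries and open blue for the 3 cultured 4T1 control libraries. The choroid plexus list runs from 568 to 1506 CPM in brain and from 1.92 to 2.93 CPM in culture, and the keratin list from 115 to 150 CPM in brain and from 2923 to 2942 CPM in culture.

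Choroid plexus genes were among the most distinctive of the brain cultures. All 8 tested genes of the ependymal and choroid plexus list (12 in all) were called higher, with a median log2 of 10.62, or 8.92 with genes absent from culture at their bound. Ttr, transthyretin, the thyroxine carrier that the choroid plexus secretes, stood at 234, 849, 800, 750 and 1046 CPM in brain libraries 1 to 5 and had no count in culture, at least 7623-fold higher (adjusted p = 3.24e-08). Clic6, a chloride channel family member of secretory epithelia, stood at 124, 220, 209, 183 and 181 CPM, at least 1902-fold higher, and Otx2, the homeobox factor that specifies the choroid plexus, at 64.8, 75.5, 73.2, 69.6 and 77.7 CPM, at least 748-fold higher. Library 1 was lowest for each of these 3 genes. Folr1, which carries folate into cerebrospinal fluid, stood at 57.6 ± 7.51 CPM with 1 count in culture, a ratio of 1782 (320 to 70429). Foxj1, the regulator of motile cilia, stood at 77.3 to 113 CPM in brain and 1.28 to 2.05 CPM in culture, 50.4-fold higher (log2 5.65 ± 0.19, adjusted p = 2.81e-12). Ccdc153 and Tmem212, markers of mature ependymal cilia, were close to 0 in brain, with no count and at most 0.175 CPM.

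Another list, of choroid plexus transport and secretion genes, was added after values were seen, and 15 of its 18 tested genes were higher and none lower. Enpp2, autotaxin, which makes lysophosphatidic acid, stood at 2035, 2817, 2932, 2720 and 3318 CPM in brain against 0.196, 0.427 and 0.261 CPM, 9153-fold higher (log2 13.16 ± 0.26, adjusted p = 2.17e-14). Lrp2, megalin, an endocytic receptor, stood at 643, 797, 621, 597 and 690 CPM with no count in culture, at least 6939-fold higher. Slc4a10, a bicarbonate transporter of fluid secretion, had a ratio of 10105 (2797 to 83445) and the channel gene Trpm3 a ratio of 7390 (1326 to 291926). The 3 genes not called were Aqp1, Car12 and Slc12a2. Aqp1, the water channel of the apical choroid membrane, was low, at 6 to 10.1 CPM in brain and 20.2 to 23 CPM in culture, and Car12 was also higher in culture.

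Macrophage genes were high, and several genes that define resting microglia were nearly absent. In the list of microglia and macrophage genes, 11 of 12 tested members (23 measured) were higher and 1, Csf1r, was not called at 5.67-fold. Lyz2, lysozyme of phagocytes, stood at 2674, 2203, 1241, 1832 and 1687 CPM with no count in culture, at least 19972-fold higher (adjusted p = 3.96e-11). Trem2, a lipid sensing receptor, stood at 159, 141, 119, 153 and 146 CPM, at least 1489-fold higher, and its adaptor Tyrobp at 80.6, 76.5, 65.7, 100 and 74.6 CPM, at least 824-fold. Library 3 was lowest for all 11 called members. Cd68, of phagocyte lysosomes, was 156-fold higher (log2 7.29 ± 0.16, adjusted p = 4.87e-14). Itgam and Adgre1, which encode CD11b and F4/80, stood at 35.2 to 49.7 and 27.1 to 38.6 CPM. By contrast Aif1, which encodes Iba1, was at 0, 0.231, 0, 0 and 0.262 CPM, Cx3cr1 at 1.15 CPM at most, P2ry12 at 0.923 CPM at most and Siglech at 0 in all 8 libraries. Tmem119 and Sall1, further microglial genes, stood at 6.37 to 10.2 and 26.4 to 35.1 CPM. Genes of complement C1q, which resident brain macrophages make, did not pass the filter and reached at most 4.72 CPM.

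A list of lipid and lysosome genes of macrophages, also added after values were seen, held 12 genes called higher of 16 tested and none lower. Library 3 was lowest for 8 of these 12 and highest for 2, Ctsd among them. Which cells of the brain cultures made these transcripts was not tested. Mmp12, macrophage elastase, stood at 2977, 2765, 1979, 2655 and 2290 CPM with no count in culture, at least 26251-fold higher (adjusted p = 3.37e-13). Ctsd, the lysosomal protease cathepsin D, had the highest level of the list, at 18173, 18090, 19285, 18357 and 17724 CPM against 188, 187 and 187 CPM, 97.6-fold higher (log2 6.61 ± 0.060, adjusted p = 1.06e-16). Gpnmb, a lysosomal glycoprotein, was 281-fold higher (log2 8.13 ± 0.17), Apoe, the lipoprotein of brain lipid transport, 540-fold (log2 9.08 ± 0.21) and Ctsb 25.3-fold (log2 4.66 ± 0.091). The cholesterol exporter Abca1 stood at 530, 595, 574, 585 and 632 CPM, at least 6044-fold higher, and the fatty acid receptor Cd36 at 888, 522, 349, 544 and 374 CPM, at least 5549-fold. Lgals3, Fabp5, Cd9 and Acp5 were not called. Lpl, lipoprotein lipase, had a ratio of 8941 (1604 to 353168). Spp1, osteopontin, which macrophages and tumours secrete, was already at 287, 304 and 294 CPM in culture and stood at 5225, 5054, 3157, 4541 and 4583 CPM in brain, 15.3-fold higher (log2 3.94 ± 0.15, adjusted p = 7.65e-12).

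Genes of meninges and fibroblasts included the largest rise of all. Igfbp2, a binding protein of insulin-like growth factors made by the leptomeninges and choroid plexus, stood at 10357, 13023, 15089, 12445 and 11925 CPM with no count in culture, at least 130236-fold higher (adjusted p = 3.8e-14). It made up 95.8% of the summed level of the meningeal list, of whose 14 tested members (16 in all) 11 were higher and none lower. Zic1, a transcription factor of dorsal brain and meninges, stood at 65.7 to 75.9 CPM, at least 715-fold higher, and Tbx18, of mural and meningeal cells, was called higher at 26.6 to 39.8 CPM. The prostaglandin D synthase Ptgds had a ratio of 3062 (549 to 120985) and the small proteoglycan Ogn 2120 (587 to 17512). Foxc1 went the other way, at 29.8 to 44.7 CPM in brain and 87.9 to 93.2 CPM in culture, below 8-fold.

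Of 19 tested fibroblast genes (24 in all), 12 were higher and none lower, with a median log2 of 7.98, or 6.43 with absent genes at their bound. Lox, which cross-links collagen, stood at 907, 813, 1033, 875 and 894 CPM with no count in culture, at least 9374-fold higher (adjusted p = 3.6e-14). Col1a1, the major fibrillar collagen chain, stood at 229, 181, 202, 279 and 269 CPM against 0.391, 0.641 and 0.0869 CPM, 633-fold higher (log2 9.31 ± 0.29, adjusted p = 1.24e-12). Col1a2, its partner chain, was 1875-fold higher (log2 10.87 ± 0.26), and Col5a2 stood at 404 to 571 CPM, at least 5159-fold higher. Dcn, decorin, stood at 77.0 to 131 CPM, at least 1097-fold higher. Other fibroblast markers were near 0 in brain: Fap reached 0.205 CPM, Dpt 0.115 CPM and Pi16 1.06 CPM. Fbln2 was not called and was 4.30-fold lower.

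Further genes among the largest rises belonged to none of the lists above. Gas6, the ligand of the receptor Axl, stood at 1842 ± 163 CPM (n = 5), at least 19093-fold higher. Sulf1, which edits heparan sulfate, stood at 1833 ± 124 CPM with 1 count in culture, a ratio of 57079 (10244 to 2254522). Cemip, of hyaluronan breakdown, was at least 5866-fold higher, the scavenger receptor Colec12 at least 4322-fold and the axonal motor Kif1a at least 4803-fold.

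Mural cell genes were called higher in 14 of 15 tested members (18 in all), with none lower. Acta2, smooth muscle actin, stood at 378, 375, 484, 547 and 548 CPM against 0, 0.107 and 0.348 CPM, 2693-fold higher (log2 11.39 ± 0.32, adjusted p = 4.24e-13). Tagln, an actin binding protein of contractile cells, was 341-fold higher (log2 8.41 ± 0.23, adjusted p = 2.88e-13). Pdgfrb, the receptor that pericytes need, stood at 138, 102, 115, 147 and 154 CPM with 2 counts in culture, a ratio of 2063 (571 to 17039). Notch3 had a ratio of 324 (111 to 1572), while Vtn and Higd1b, markers of brain pericytes in tissue, reached only 0.461 and 0.115 CPM. The search for CArG letters, the site of serum response factor, in this list is void, since 12 of 18 genes had a window, and it was found in none of the 12 and in 1.81% of all genes with a window.

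Endothelial genes were lower in level than mural ones within the same brain libraries, with summed levels of 459 ± 51.6 and 1299 ± 149 CPM. In culture the same sums were 173 ± 4.76 and 19.8 ± 1.61 CPM, so part of the endothelial list was also expressed in the cultured line. Such sums also depend on transcript length and on the number of genes. Of 18 tested endothelial genes (20 in all), 14 were higher and none lower. Pecam1, which encodes CD31, stood at 23, 19.4, 17.5, 21.2 and 12.3 CPM against 0, 0.107 and 0.261 CPM, 132-fold higher (log2 7.05 ± 0.43, adjusted p = 1.37e-09). Cdh5, VE-cadherin, stood at 49.2, 39.8, 32.3, 54.6 and 32.9 CPM, a ratio of 646 (179 to 5340). Kdr, the main receptor of VEGF, stood at 20.7 to 31.4 CPM, at least 274-fold higher. Markers of the blood-brain barrier were low in brain: Slco1a4 stood at 1.84 to 2.36 CPM, Cldn5 at 1.75 to 5.88 CPM, and Mfsd2a, a lipid carrier, was lower than in culture at 1.91 to 5.54 against 18.8 to 23 CPM.

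Astrocyte genes were present but modest in level. Of 14 tested members (18 in all), 9 were higher and 1 lower, with a median log2 of 9.26, or 6.81 with absent genes at their bound. The summed level of the list differed little, at 644 CPM in brain and 448 CPM in culture. Sox9 was not called and was lower in brain, at 26.2 CPM against 100 CPM. Gfap, the astrocyte filament, stood at 80.2, 56, 57.0, 65.2 and 50.7 CPM in brain with 1 count in culture, a ratio of 1915 (343 to 75671). Slc1a2, the glutamate transporter, stood at 25.4 to 32.2 CPM, at least 311-fold higher, and Aqp4 at 8.39 to 15.6 CPM, at least 115-fold. Gja1, connexin 43, was the member called lower, at 33.3 to 37.7 CPM against 278 to 292 CPM, 8.05-fold (log2 -3.01 ± 0.056), and it lost the call under 9 of 23 alternative settings, among them 16-fold and the fits without brain library 1, 3 or 5 (log2 -2.99, -2.99 and -2.98). Gjb6 and Ntsr2, of mature astrocytes, were close to 0. Among 12 neural stem and progenitor genes, 8 were tested, 6 were higher and 1 lower, with Sox2 at 22.5 to 33.3 CPM, at least 279-fold higher. Dlx1, which had 2 counts in brain and 9.39 to 10.9 CPM in culture, was the lower one, a ratio of 243 (66.7 to 2014). The summed level of the progenitor list was not raised, at 186 CPM in brain and 259 CPM in culture. Nes, which made up 55.7% of the brain sum, was not called, at 104 CPM in brain and 247 CPM in culture.

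Most neuronal genes were near 0, and 15 of 18 did not pass the filter. The summed level of the list was 76.1 to 95.1 CPM in brain and 22.9 to 31.1 CPM in culture. Of the 3 that were tested and 2 were higher: Stmn2, a tubulin binding protein of growing axons, at 40.7, 30.7, 38.9, 31.5 and 23.7 CPM, at least 343-fold, and Syn1, 86.5-fold (log2 6.43 ± 0.36). Rbfox3, which encodes NeuN, had 3 counts in all, Snap25 at most 0.231 CPM and Dcx none. The oligodendrocyte list gave 4 genes higher of 6 tested (16 in all). Sox10 stood at 7.38, 8.76, 9.34, 10.1 and 14.1 CPM, at least 103-fold higher, while the myelin genes Mog and Opalin had at most 0.115 CPM. Of 10 tested Schwann and neural crest genes (12 in all), 8 were higher, among them Ednrb, an endothelin receptor, at 35.3 to 47.8 CPM and at least 432-fold.

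Other blood and tissue cells left few marks, apart from some genes of the fat cell list. No neutrophil gene of 11 and no erythroid gene of 6 passed the filter, and S100a9, Ngp, Ltf and Elane were at 0 in every library. Of 17 lymphocyte genes only Ptprc, which encodes CD45 on all white cells, was tested, at 71.6, 47.0, 32.4, 46.9 and 50 CPM and at least 514-fold higher, and it made up 97.1% of that list's level. Muscle gave Des alone of 10, at 5.77 to 8.90 CPM. Of 8 fat cell genes, 3 were tested and all 3 were higher. Their list summed to 349 CPM in brain and 0.0972 CPM in culture, and Lpl, described above, made up 83.1% of the brain sum. Pparg stood at 27.1 to 32.3 CPM, at least 310-fold higher, while Adipoq reached at most 1.85 CPM. In the melanocyte list, Tyrp1 and Mlana were higher, at 8.20 to 13.9 and 1.23 to 4.15 CPM, while Tyr and Dct were close to 0.

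The transition from an epithelial to a mesenchymal state is often read from Vim, Cdh2 and the Snail, Twist and Zeb factors. In this list, 5 of 13 genes were higher and 1 lower, with a median log2 of 1.34. Cdh2, N-cadherin, stood at 244, 217, 263, 203 and 199 CPM with no count in culture, at least 2331-fold higher (adjusted p = 1.1e-12). Zeb1 stood at 79.3 to 90.7 CPM against 0.608 to 0.880 CPM, 110-fold higher (log2 6.79 ± 0.13, adjusted p = 1.88e-14). Vim, the mesenchymal filament, was high in the cultured line itself, at 2883, 2853 and 2934 CPM, and at 1690, 1592, 1592, 1784 and 1698 CPM in brain, so it was not called. Twist1 and Snai1 were not called and were lower in brain, 6.67-fold and 2.94-fold. S100a4, a calcium binding protein tied to motility, was the member called lower, 19.2-fold (log2 -4.27 ± 0.14, adjusted p = 2.59e-12). Twist1, Twist2 and Prrx1 also stand in the fibroblast list, and the part of other cell types in these levels was not tested.

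Genes of cell division were lower together in the brain cultures. Of 24 mitosis genes, all tested, 23 were lower and the remaining one, the kinesin Cenpe, was 7.86-fold lower and was called without brain library 3 or any 1 cultured library (log2 -3.06 to -3.01 without a cultured one), with a median log2 of -4.80 against 0.16 for all genes. Mki67, the proliferation antigen Ki-67, stood at 30.8, 20.2, 20.6, 21.1 and 18.1 CPM in brain against 465, 445 and 463 CPM, 20.7-fold lower (log2 -4.37 ± 0.11, adjusted p = 1.91e-13). Top2a, which untangles chromosomes, stood at 28, 16.6, 21.0, 23.7 and 23.9 CPM against 847, 842 and 881 CPM, 37.7-fold lower (log2 -5.24 ± 0.10, adjusted p = 2.37e-14). Bub1b, of the spindle checkpoint, was 52.4-fold lower (log2 -5.71 ± 0.092), and the summed level of the list was 196 ± 16.7 CPM against 4706 ± 25.5 CPM. No brain library overlapped a cultured one for these 3 genes.

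DNA replication genes followed with smaller differences. Of 24 tested, 14 were lower and none higher, with a median log2 of -3.26. Mcm5, of the replicative helicase, was 31.3-fold lower (log2 -4.97 ± 0.087, adjusted p = 9.42e-15) and Rrm2, which makes deoxynucleotides, 18.4-fold (log2 -4.20 ± 0.084). Pcna, the sliding clamp that also serves in repair, was 3.64-fold lower and not called, at 81.0 to 97.5 CPM in brain. Ccne1, cyclin E1, differed least, at 11.5 to 13.4 CPM against 13 to 17.4 CPM, and its groups overlapped.

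Mitotic promoters share the letters TTTGAA, the cell cycle homology region that repressor complexes of resting cells bind, and CCAAT boxes of the factor NF-Y. Windows of 3 of the falling genes are shown for this layout, from RefSeq on GRCm38.p6, 5′ to 3′ on the strand of the gene, with TTTGAA and CCAAT in capitals. Ccnb2 lies at chr9:70421505-70421804 on the minus strand, Cdc20 at chr4:118437294-118437593 on the minus strand and Plk1 at chr7:122159185-122159484 on the plus strand.
Ccnb2: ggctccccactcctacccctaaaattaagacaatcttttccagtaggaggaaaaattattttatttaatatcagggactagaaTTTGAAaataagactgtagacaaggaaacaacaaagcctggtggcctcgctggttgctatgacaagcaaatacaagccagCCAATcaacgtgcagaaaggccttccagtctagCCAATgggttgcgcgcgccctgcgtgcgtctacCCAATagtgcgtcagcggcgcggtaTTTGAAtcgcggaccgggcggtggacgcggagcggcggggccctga
Cdc20: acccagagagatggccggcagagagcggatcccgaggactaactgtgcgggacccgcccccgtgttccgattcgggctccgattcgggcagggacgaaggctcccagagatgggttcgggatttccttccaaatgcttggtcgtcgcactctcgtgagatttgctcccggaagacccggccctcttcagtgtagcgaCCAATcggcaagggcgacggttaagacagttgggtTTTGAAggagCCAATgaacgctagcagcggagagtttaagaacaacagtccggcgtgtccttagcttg
Plk1: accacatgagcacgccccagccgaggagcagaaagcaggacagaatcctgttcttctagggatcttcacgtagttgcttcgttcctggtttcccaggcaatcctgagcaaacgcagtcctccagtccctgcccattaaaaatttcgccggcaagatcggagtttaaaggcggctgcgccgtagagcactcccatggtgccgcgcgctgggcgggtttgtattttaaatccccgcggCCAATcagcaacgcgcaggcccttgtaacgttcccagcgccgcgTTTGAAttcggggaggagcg
Searched on both strands, TTTGAA was found in 16 of the 21 mitosis genes with a window (76.2%) and in 20.2% of all 27025 genes with a window, and CCAAT in 17 of 21 (81.0%) and in 41.1%. Both were chosen after the fall of this list was seen, and matches that share bases were kept. Ccnb2, cyclin B2, was 30.1-fold lower (log2 -4.91 ± 0.084), Cdc20, which activates the anaphase complex, 34.7-fold (log2 -5.12 ± 0.080) and Plk1, a mitotic kinase, 39.1-fold (log2 -5.29 ± 0.074).

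**Figure D4:**
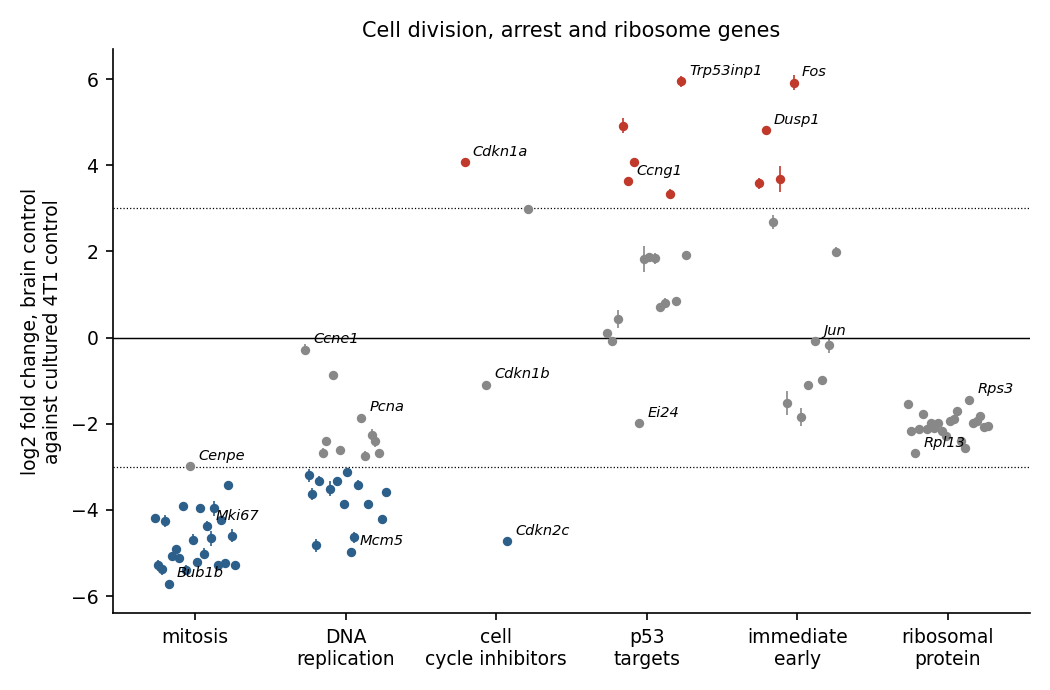
Points are log2 fold changes of brain control against cultured 4T1 control with their SE, 1 per tested gene with more than 3 counts in each group, red where called higher, blue where called lower and grey where not called, with dotted lines at 8-fold. The mitosis genes lie below the lower line except Cenpe, at -2.98, while Cdkn1a, at 4.08, and 7 of the p53 targets, 2 of which have no count in culture and are not drawn, were called higher.

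Genes that hold the cycle back went in several directions. Cdkn1a, the inhibitor p21, stood at 294, 321, 370, 314 and 313 CPM in brain against 17.4, 20.9 and 18.8 CPM, 16.9-fold higher (log2 4.08 ± 0.094, adjusted p = 6.85e-14). Cdkn2b, p15, stood at 19.4 to 26.9 CPM with no count in culture, at least 236-fold higher, and its neighbour Cdkn2a, which did not pass the filter, at 1.95, 3.23, 2.44, 4.85 and 1.49 CPM with no count in culture, at least 28.9-fold. Cdkn1c, p57, had a ratio of 510 (141 to 4216). Cdkn2c, p18, was 26.4-fold lower (log2 -4.72 ± 0.075), and Cdkn1b, p27, was not called at 2.12-fold lower. Rb1 lay just under the threshold at 7.90-fold higher and was called without brain library 4 or cultured library 1 (log2 3.00 and 3.02).

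Of 18 tested p53 target genes (19 in all), 7 were higher and none lower, with a median log2 of 1.86. Trp53 itself was not called, at 63.8 to 78.0 CPM in brain and 33.9 to 44.7 CPM in culture. Ccng1, cyclin G1, stood at 670, 664, 683, 661 and 612 CPM against 54.9, 53.7 and 51.2 CPM, 12.4-fold higher (log2 3.63 ± 0.063, adjusted p = 9.32e-15). Pmaip1, which encodes the death factor Noxa, stood at 88.9 to 125 CPM with no count in culture, at least 1065-fold higher, and Eda2r at 35.6 to 42.6 CPM, at least 389-fold. Trp53inp1 was 61.8-fold higher (log2 5.95 ± 0.13). Bax was 1.06-fold lower and Aen 1.08-fold higher, neither called, and Mdm2 was 3.67-fold higher without a call.

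Growth factors and their receptors were called in both directions. Of 26 tested growth factors and cytokines, 10 were higher and 1 lower. Igf1 stood at 75.5, 58.9, 42.2, 65.9 and 59.2 CPM with no count in culture, at least 625-fold higher, and the chemokine Cxcl12 at 33.9 to 45.0 CPM, at least 394-fold. Hgf, the ligand of Met, stood at 7.21 to 12.6 CPM, at least 97.3-fold higher. Csf3, the granulocyte growth factor, was the one that was lower, at 0.262 CPM or less against 24.4 to 29.2 CPM, 172-fold (log2 -7.43 ± 0.27, adjusted p = 6.19e-12).

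Of 15 tested receptors, 5 were higher and 1 lower. Fgfr1 stood at 209, 208, 193, 202 and 207 CPM against 1.37, 0.534 and 0.608 CPM, 240-fold higher (log2 7.91 ± 0.14, adjusted p = 8.96e-15), and Ntrk2, the receptor of BDNF, at 42.0 to 88.3 CPM, at least 725-fold. Met stood at 40.3, 35.9, 26.5, 25 and 24.1 CPM against 299, 298 and 296 CPM, 9.84-fold lower (log2 -3.30 ± 0.13, adjusted p = 9.81e-12). Axl, the receptor of Gas6, was 6.44-fold lower and not called, while Erbb2 was 3.11-fold lower and not called.

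Immune and stress genes were called in part. Of 17 tested interferon response genes, 3 were higher (Ifi27, Ifit3 and Ifi44), a share close to the 16% of all tested genes. None of 11 tested genes of MHC class I was called. Of 3 tested MHC class II genes, H2-Ab1 was higher, at 7.43 to 9.34 CPM, a ratio of 262 (46.8 to 10386), while H2-Aa and H2-Eb1 were close to 0. Among 12 immediate early genes, 4 were higher, with Fos 60.6-fold (log2 5.92 ± 0.18) and Dusp1 28.3-fold (log2 4.82 ± 0.084), and Jun was not called, at 142 to 152 against 155 to 157 CPM. In the basement membrane list 4 of 14 tested genes were higher, among them Nid1, 113-fold (log2 6.82 ± 0.17), and Nid2, at least 406-fold.

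Ribosomal protein genes fell below the threshold together: 0 of 22 were called, with fold changes from 2.72 to 6.40 lower and a median log2 of -2.02. These differences are under the 8-fold limit set because source and experiment cannot be told apart. Of the 13 mitochondrially encoded genes, 7 were called higher. The cultured libraries varied widely for 1 of them, mt-Co3, at 246, 0.107 and 0.0869 CPM against 574 to 1049 CPM in brain, and the calls of mt-Nd4, mt-Nd5, mt-Nd6, mt-Co1 and mt-Co3 were lost without cultured library 2 (log2 2.73, 2.95, 2.75, 2.99 and 2.79). Those of mt-Nd4, mt-Nd6 and mt-Co3 were also lost without cultured library 3 (log2 2.92, 2.89 and 2.77), and those of mt-Nd4 and mt-Nd6 without some of the brain libraries (log2 2.94 to 3.00).

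Xist, the RNA that silences an X chromosome in female cells, stood at 561, 481, 464, 569 and 506 CPM in brain and at 0, 0 and 0.0869 CPM in culture, a ratio of 16074 (2885 to 634908). Ddx3y, Kdm5d, Uty and Eif2s3y, genes of the Y chromosome, had no count in any of the 8 libraries.

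The 5 brain libraries differed from each other more than the cultured ones did: the median coefficient of variation of genes at 20 CPM or more was 7.63% in brain and 4.23% in culture. Library 1 was lowest for 7 of the 8 called choroid plexus genes, with Kl, klotho, at 5.23 CPM against 28, 21.3, 28.7 and 36.0 CPM in libraries 2 to 5. Library 3 was lowest for all 11 called macrophage genes. Library 5 was lowest for 6 of 16 called epithelial genes, 4 of 6 keratins and 3 of 4 hemidesmosome genes, while library 1 was highest for all 4 of the latter. Lamb3, for example, stood at 2.97, 2.77, 0.743, 0.505 and 0 CPM in libraries 1 to 5. Library 5 was also lowest for 7 of 10 called astrocyte genes and 7 of 14 endothelial genes, of which library 3 was lowest for a further 6. Library 2 was lowest for all 7 called mitochondrially encoded genes and for 15 of 23 called mitosis genes. CT010467.1, the most abundant gene of libraries 2 and 4, stood at 9203, 19845, 10349, 22443 and 11066 CPM in libraries 1 to 5. These patterns were noticed in the data and have no test.

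**Figure D5:**
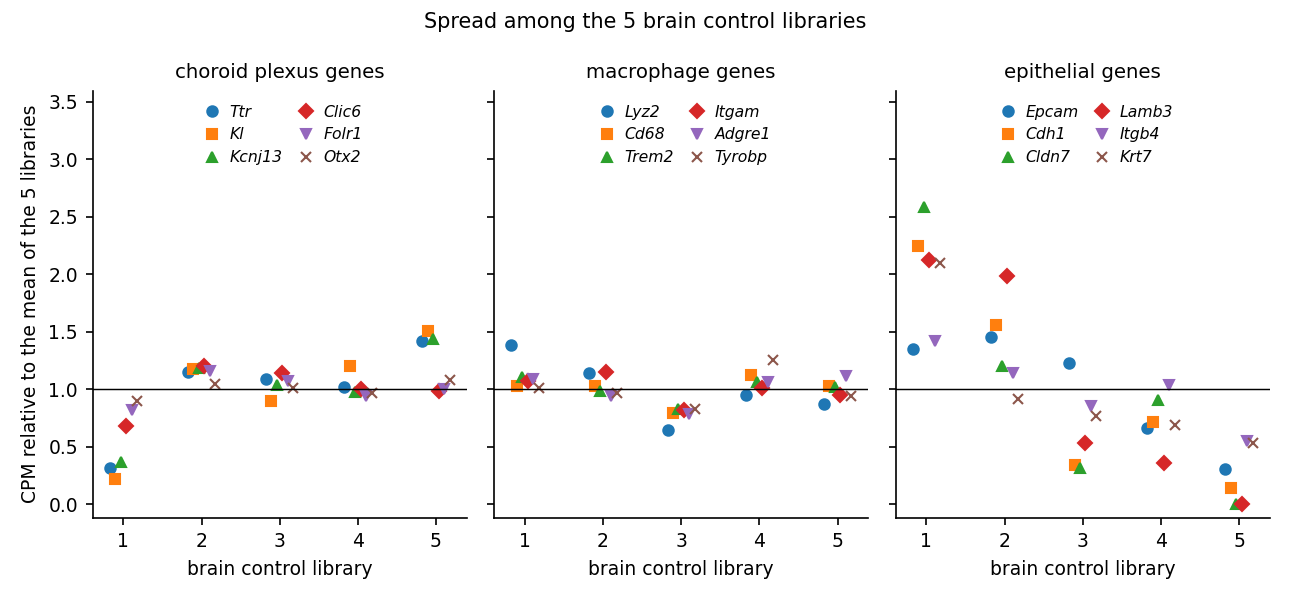
Each panel shows 6 genes, with the CPM of each brain control library (x axis) relative to the mean of the 5 libraries (y axis). The choroid plexus genes are lowest in library 1, where Ttr is at 234 CPM, the macrophage genes in library 3, and the 6 epithelial genes drawn in library 5, which was lowest for 6 of the 16 called genes of the epithelial list.

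The called genes were then followed in libraries that took no part in the comparison. In the 10 IS and IR libraries of the brain experiment against the 6 IS and IR exosome libraries of the culture experiment, 1900 of the 2056 higher genes (92.4%) and 508 of the 606 lower ones (83.8%) differed by 8-fold or more in the same direction. These libraries come from the same 2 experiments, so the experiment and the source still cannot be told apart there. Against the 5 cultured 4T1 libraries of the microRNA experiment, a separate experiment quantified with another tool, the 5 brain control libraries differed by 8-fold or more the same way for 1904 of 2048 higher genes (93.0%) and 540 of 606 lower ones (89.1%). This second comparison uses the same brain libraries as the first call. The titles and library names of the microRNA experiment disagree on which libraries were given the microRNA, so all 5 were used only as cultured 4T1 cells.

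Single genes, in the same unscaled CPM, showed the same range. Epcam was at 0.278 to 2.64 CPM in the other brain libraries and at 140 to 212 CPM in the other cultured ones, and Hoxa10 had no count in any other brain library and 16.3 to 28.6 CPM in the other cultured ones. Igfbp2 was at 5877 to 12713 CPM in the other brain libraries and at 0 in all 11 other cultured ones. Of the 6 mitochondrially encoded genes mt-Atp6, mt-Co1, mt-Co3, mt-Nd4, mt-Nd5 and mt-Nd6, each of which was called higher, all went the other way against the microRNA experiment.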

How the data were processed

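RNA was read from Illumina TruSeq Stranded mRNA libraries, per the labels' protocols. The brain and in vitro tables hold expected counts per gene that the authors made with RSEM, per the labels and file titles, and the microRNA table holds estimated counts from salmon, deposited the same way. DESeq2, STAR, featureCounts and Trimmomatic, with no versions, and both the GRCm38 (mm10) and GRCm39 (mm39) builds are named in the submitters' processing notes. The build behind any 1 table was not stated there, and the coordinates printed are RefSeq's own. Gene models that share sequence or overlap on 1 strand can exchange counts.

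Expected counts were rounded. Of 55487 identifiers shared by the brain and in vitro tables, 52139 were named from the tumour table, 3257 from a reference gene table and 91 stayed unnamed. A further 3 in vitro columns carried names of no listed sample and were left out. Genes at 3 CPM or more in at least 3 of the 8 libraries were TMM-scaled and tested with edgeR 4.0.16 (glmQLFit, R 4.3.3, limma 3.58.1) with no covariate. Benjamini-Hochberg adjustment covered all 12821 genes. The biological coefficient of variation was 0.0898. SE is the log2 fold change divided by the root of F. The members, the 38 gene lists and the tests were chosen with earlier results of these data known, and 2 further lists, CHR and CCAAT were added after values were seen. Named genes are the 14 largest rises and 14 largest falls at 20 CPM or more with an ordinary symbol and no overlap between groups, up to 6 highest members of each list, and a set of markers. Other list members were chosen after their values were seen. Some members are counted in their lists and not reported here by name.

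On simulated counts with 200 changed genes, 100% of genes changed 16-fold, 0% of those changed 4-fold and 0 of 12621 unchanged genes were called. The simulation used a common dispersion for all genes and changed only genes at 20 CPM or more. It therefore checks the running of the procedure and not its error rate in these data. Libraries of a group differed by more than sampling noise, with a chi-square per degree of freedom of 2.47 to 13.9, so none was counted as a duplicate. Alternatives covered scaling, the test (DESeq2 1.42.0, glmTreat), the filter, the samples in the fit, the replicate number, each library and the fold.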

Additional observations from a re-analysis of the deposited data

Results flagged for a closer look

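Dixon's test for a library far from the others was run on the 5 brain control libraries, for list sums and for the named genes, in 87 tests, and it marked 11. Chance marks about 1 in 20 where values vary smoothly. That rate does not hold for genes near 0, where a count in a single library is marked each time. Among the lists, the summed oligodendrocyte level was lowest in library 1 at 150 CPM, the summed erythroid level was highest in library 2 at 0.692 CPM, and the summed level of the list of mesenchymal genes and factors was highest in library 1 at 7457 CPM, of which Fn1 took 5066 CPM. Mki67 was highest in library 1 at 30.8 CPM. The other 7 rest on a few counts in 1 library of genes near 0 in brain: Padi4, Phlda2 and Padi1 at 0.0874 CPM in library 5, Tmprss11e at 0.404 CPM and Htr5b at 0.101 CPM in library 4, and Tigit at 0.115 CPM and Rbfox3 at 0.346 CPM in library 2. None of these values changes a call.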

How the results depend on the processing

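Against 2056 higher and 606 lower genes, counts stayed within 1.5 times under other scalings, DESeq2 (2066 and 596), glmTreat (1887 and 491), all groups in one fit and without the mitochondrial genes. With no filter 4215 were higher and 948 lower. At 16-fold 329 were lower, and at 4-fold 1225. Leaving out 1 library gave 1981 to 2040 higher and 331 to 616 lower genes. The low end of the latter came from leaving out a cultured library (333, 338 and 331 for libraries 1, 2 and 3), since the filter then asks for 3 libraries where 2 are left. With the filter at 2 libraries, added after seeing the data, 613 to 618 were lower. Replicate numbers did not pair the samples, with correlations of -0.018, 0.040 and -0.026 for equal numbers, and the fit with the replicate number as a block gave 2055 higher and 616 lower genes. Of 265 named and tested genes 169 were called, and 150 of these kept the call at 16-fold. Of the 19 lost there, Krt18, Krt19, Itgb4, Met, Cdk1, Mcm3, Ccng1, Spp1, Atf3 and Ifi27 lost it nowhere else. In the settings that kept the 8-fold threshold, 160 kept the call wherever they were tested, and 37 were untested in at least 1 setting, 30 of them without any 1 cultured library. Gja1, Pmp22, Lama3 and 6 mitochondrially encoded genes lost the call in some of these settings, and Rb1 and Cenpe gained one. No named gene reversed. At 4-fold 25 further genes were called. Depth limits statements on genes near the floors.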
